A study of Mus musculus with 6 samples.

Results

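The 10 genes described here are *Eln*, *Fbn1*, *Fbn2*, *Fbln1*, *Fbln2*, *Fbln5*, *Efemp1*, *Efemp2*, *Emilin1* and *Mfap5*, taken by symbol from a table of 17092 genes. All 10 had a row, and all 10 were among the 13075 genes that passed a filter on low counts. The data are RNA-seq of MEFs, fibroblasts cultured from mouse embryos, from WT mice and from *Aff3ir-ORF2-/-* mice, which lack ORF2 of *Aff3ir*, a gene nested within *Aff3*. There were 3 libraries of each genotype, with no treatment named for either. The labels give neither the age of the embryos nor how many embryos were used. The comparison asks how the loss of *Aff3ir-ORF2* bears on the expression of fibroblasts. The 10 genes were chosen by name with their fold changes between these same libraries in view, so the fold changes are given as a description, each with its standard error (SE) and with no p-value.

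Elastic fibres are built from an elastin core laid on a scaffold of fibrillin microfibrils, and fibulins, EMILIN-1 and microfibril-associated proteins join the parts. In the arterial wall these fibres provide recoil, and fibroblasts and smooth muscle cells secrete their components. Soluble tropoelastin is placed on the microfibrils by the short fibulins and then crosslinked by lysyl oxidases, while the microfibrils also hold latent TGF-β through its binding proteins.

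Total counts ranged from 17435133 to 17726034 in WT and from 18209421 to 18252330 in *Aff3ir-ORF2-/-* libraries. Values are given as counts or as CPM, counts relative to the TMM-scaled total of a library. Nothing in the labels says whether the libraries of a genotype came from separate embryos or cultures, so the spread between them may be technical. *Aff3ir-ORF2-/-* replicate 2 stood apart from the other *Aff3ir-ORF2-/-* libraries, at 22.5 on the second principal component against -8.81 and -14.7, so the differences of the 10 genes are also given without it, and those of the related genes at the end where the call changed. The common biological coefficient of variation was 0.0185 in WT and 0.0996 in *Aff3ir-ORF2-/-* libraries. *Aff3ir* itself was not analysed here, so the genotype of a library was not checked by the targeted transcript. Of 12 fibroblast markers, 1 was higher and none was lower. Their summed level was 28850 to 28930 CPM in WT and 26900, 31200 and 25310 CPM in *Aff3ir-ORF2-/-* replicates 1, 2 and 3. The markers with the highest CPM moved apart without reaching 1.5-fold, *Fn1* up (log2 fold change 0.45) and *Col1a1* (-0.49), *Col1a2* (-0.41) and *Vim* (-0.39) down. All 17 tested genes of an 18-gene macrophage list were higher, and the list summed to 23.0 to 26.5 CPM in WT and to 1380, 1912 and 2358 CPM in *Aff3ir-ORF2-/-* replicates 1, 2 and 3. *C1qa*, *C1qb* and *Aif1* were at 0 counts in every WT library. *Aif1*, the gene of the list that was not tested, was also low in *Aff3ir-ORF2-/-* libraries, at 1, 3 and 5 counts. Of 7 smooth muscle markers, 5 were higher, with sums of 4420 to 4520 CPM in WT and 7271 to 7986 CPM in *Aff3ir-ORF2-/-* libraries. The others, *Smtn* (log2 fold change -0.45) and *Lmod1* (-0.096), were not called and lay below 0. Of 4 tested endothelial markers, *Kdr* and *Vwf* were higher and *Cdh5* was lower. *Tek* lay below 0 (log2 fold change -1.28) and was not called. The 6 matched endothelial markers summed to 7.66 to 8.47 CPM in WT and 14.1 to 19.9 CPM in *Aff3ir-ORF2-/-* libraries. The 1 tested epithelial marker was not called, and the 7 epithelial markers summed to 4.12 to 4.87 CPM and 3.65 to 5.44 CPM. More cells of a type and more RNA per cell cannot be told apart in these bulk libraries, and the part of other cells in the results below was not tested.

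By the call used here, an adjusted p under 0.05 and a change of at least 1.5-fold in edgeR's quasi-likelihood test, *Efemp1*, *Eln* and *Emilin1* were higher in *Aff3ir-ORF2-/-* MEFs, *Fbln1* was lower, and 6 genes did not pass. These were 3 higher and 1 lower of 10 genes, beside 14.2% higher and 7.27% lower among all tested genes. The genotypes did not overlap in CPM for 7 of the 10 genes, against 66.0% of all tested genes. At any fold change, 6 of the 10 genes and 56.8% of all tested genes had an adjusted p under 0.05 in edgeR's test. The median log2 fold change of the 10 genes was 0.24, and that of all tested genes was 0.0056. Since the choice of genes used these differences, nothing is read from the counts.

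**Figure D1:**
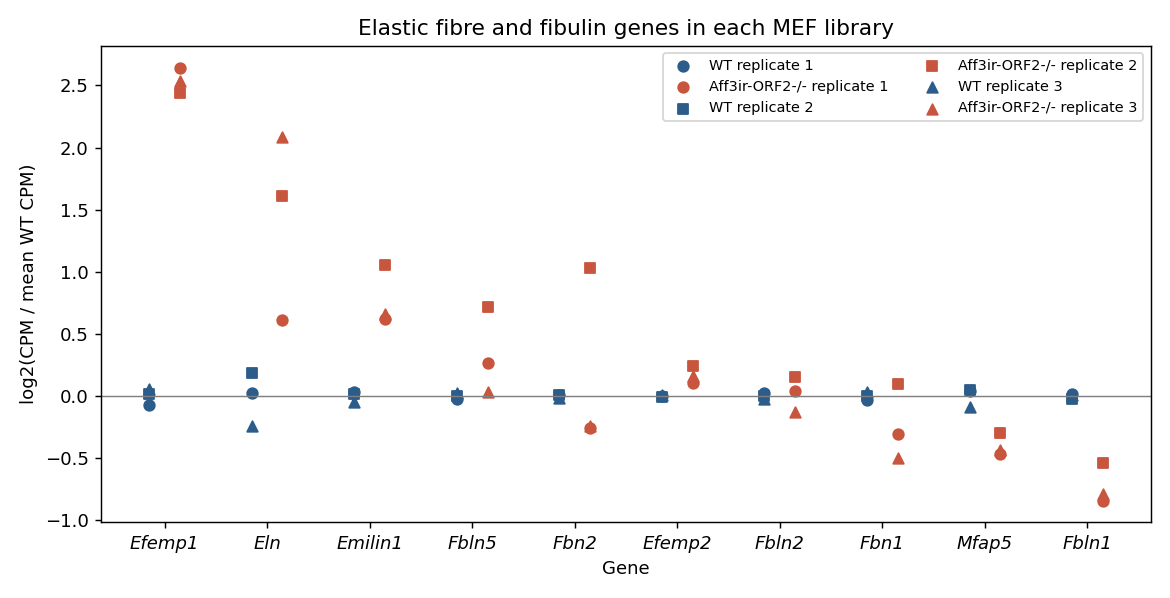
Log2 ratio of each library's CPM to the mean WT CPM (y axis) for the 10 genes (x axis, ordered by fold change), with blue points for WT and red points for *Aff3ir-ORF2-/-* libraries and a shape for each replicate number. *Efemp1* lay at 2.44 to 2.64 in the *Aff3ir-ORF2-/-* libraries, while *Fbn2* lay at 1.03 in replicate 2 and at -0.25 and -0.24 in replicates 1 and 3.

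Promoter windows, 250 bases before to 50 bases after a start site, were taken from RefSeq for 7 of the 10 genes (11 windows, GRCm38.p6). Those of *Eln*, *Fbn2* and *Mfap5* were not analysed here. The windows of the called genes *Efemp1*, *Emilin1* and *Fbln1* (the downstream of the 2 overlapping windows of *Fbln1*) are shown because these genes differed in opposite directions. Capitals mark matches to the motifs searched, on either strand.
Efemp1, chr11:28852955-28853254, plus strand: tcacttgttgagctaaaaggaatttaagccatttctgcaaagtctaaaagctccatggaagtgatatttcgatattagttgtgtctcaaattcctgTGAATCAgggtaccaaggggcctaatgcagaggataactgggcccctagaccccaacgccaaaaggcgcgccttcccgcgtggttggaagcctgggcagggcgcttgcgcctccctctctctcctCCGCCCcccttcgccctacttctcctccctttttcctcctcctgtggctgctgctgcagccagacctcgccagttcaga
Emilin1, chr5:30913536-30913835, plus strand: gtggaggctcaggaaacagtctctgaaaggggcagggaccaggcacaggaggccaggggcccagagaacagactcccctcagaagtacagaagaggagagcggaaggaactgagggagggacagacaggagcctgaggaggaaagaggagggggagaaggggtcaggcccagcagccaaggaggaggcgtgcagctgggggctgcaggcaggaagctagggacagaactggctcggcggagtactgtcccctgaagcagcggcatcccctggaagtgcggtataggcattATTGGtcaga
Fbln1, chr15:85205758-85206057, plus strand: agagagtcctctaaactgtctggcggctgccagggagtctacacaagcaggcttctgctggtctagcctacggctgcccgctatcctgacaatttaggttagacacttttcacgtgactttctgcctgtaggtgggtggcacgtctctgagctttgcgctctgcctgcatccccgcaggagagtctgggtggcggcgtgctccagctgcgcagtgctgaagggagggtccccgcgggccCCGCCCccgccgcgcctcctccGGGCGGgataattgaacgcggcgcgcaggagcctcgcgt

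A match to AP-1 was searched as TGANTCA, a loose pattern in which N is any base. These letters occurred in 7.81% of all 32851 RefSeq windows. Among the 11 windows here, that of *Efemp1* alone held them, as TGAATCA at position -154 counted from the start site at 1. The GC box, bound by Sp1, was searched as GGGCGG, and it was in 8 of the 11 windows and in 35.7% of all windows. The share of G and C was 48.67% to 78.33% in the 11 windows, against a median of 52.67% over all windows. Its part in the count of GC boxes was not tested. The *Efemp1* window held a GC box at -29 and the *Fbln1* window at -11 and 12, while the *Emilin1* window held none. The CCAAT box was in 2 of the 11 windows, those of *Emilin1* (at 41) and the upstream one of *Fbln5*, and in 37.4% of all. An IRF element, a pair of GAAA letters with 2 bases between them, was in 3.44% of all windows and here in the window of *Fbn1* and the downstream window of *Fbln5*. The TATA box, searched as TATAAA and present in 13.6% of all windows, was in none of the 11. Nor was the core of EGR sites, searched as GTGGGCG, which shares letters with the GC box and was in 7.97% of all windows. All motifs were searched on both strands. Windows of the same gene overlap or lie close together, and a match is a description of letters, not of binding.

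*Eln* (gene ID 13717) encodes tropoelastin, the soluble precursor of the elastic core. Its counts were low, 89, 101 and 75 in the WT libraries against 141, 288 and 395 in the *Aff3ir-ORF2-/-* libraries (here and below in the order of replicates 1, 2 and 3). Every *Aff3ir-ORF2-/-* library was above every WT library, and replicate 3 was 2.78 times as high in CPM as replicate 1 of the same genotype. The level was 5.07 ± 0.731 CPM in WT and 14.9 ± 6.91 CPM in *Aff3ir-ORF2-/-* MEFs (SD, n = 3), which is 2.94-fold higher (log2 fold change 1.56, SE 0.40). The call did not hold without *Aff3ir-ORF2-/-* replicate 2 (log2 fold change 1.53, SE 0.58) or without WT replicate 3 (1.45, SE 0.48), although the direction was the same in both. Within the *Aff3ir-ORF2-/-* genotype, *Eln* had the same order of libraries as the summed macrophage markers given above, lowest in replicate 1 and highest in replicate 3. *Lyz2*, at a mean of 1085 CPM, made up most of that sum. Singly, *Adgre1*, *C1qa* and *C1qc* were instead highest in replicate 2, while the other macrophage markers were highest in replicate 3. The shared order rests on 3 libraries and was not tested. The summed smooth muscle markers had another order in that genotype, at 7986, 7271 and 7463 CPM in replicates 1, 2 and 3. Outside the lists, the genes whose log2 CPM followed that of *Eln* most closely over the 6 libraries were *Il4ra* (r = 0.996), *Man1c1* (r = 0.993) and *Cmklr1* (r = 0.991). Their log2 fold changes were smaller than that of *Eln*, at 0.23, 0.15 and 0.84. The correlations are a description only, since they are the highest among all tested genes outside the lists. The points also fall into the same 2 genotypes and share their libraries.

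Fibrillin-1 and fibrillin-2, encoded by *Fbn1* and *Fbn2*, form the microfibrils, and fibrillin-2 is known mainly from embryonic tissue. *Fbn1* (gene ID 14118) had 22311, 23355 and 23649 counts in WT and 19530, 26461 and 17227 counts in *Aff3ir-ORF2-/-* libraries. The genotypes overlapped, because *Aff3ir-ORF2-/-* replicate 2 was the highest of all 6 libraries in CPM and the other 2 were the lowest. The level was 1325 ± 29.9 CPM in WT and 1144 ± 249 CPM in *Aff3ir-ORF2-/-* MEFs (SD, n = 3), with a log2 fold change of -0.21 (SE 0.15), or of -0.40 (SE 0.053) without replicate 2. *Fbn2* (gene ID 14119) had 1963, 1999 and 1962 counts in WT but 1730, 4305 and 1758 counts in *Aff3ir-ORF2-/-* libraries. Replicate 2 was thus 2.42 times the mean of the other *Aff3ir-ORF2-/-* libraries in CPM, while the WT libraries differed by a factor of 1.01 at most. The log2 fold change was 0.31 (SE 0.38) with all libraries and -0.25 (SE 0.038) without replicate 2, so the direction of *Fbn2* rests on that library. The spread of *Fbn2* among *Aff3ir-ORF2-/-* libraries, a coefficient of variation of 55.7%, was at the 99.1th percentile of all tested genes, and that of *Eln*, 46.3%, at the 98.0th percentile.

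*Mfap5* encodes a small microfibril-associated glycoprotein that binds fibrillin. The WT libraries held 437, 448 and 406 counts of it, and the *Aff3ir-ORF2-/-* libraries 325, 374 and 335 (gene ID 50530). All *Aff3ir-ORF2-/-* libraries were below all WT libraries, at 18.7 ± 1.19 against 24.7 ± 1.26 CPM (SD, n = 3). The log2 fold change was -0.40 (SE 0.074), short of the 1.5-fold needed for a call, and -0.46 without replicate 2.

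The short fibulins are fibulin-5 (*Fbln5*), fibulin-3 (*Efemp1*) and fibulin-4 (*Efemp2*), secreted proteins of linked EGF-like repeats. Fibulin-4 and fibulin-5 bind tropoelastin and are needed for normal elastic fibres. *Efemp1* (gene ID 216616) had the largest difference of the 10 genes. From 312, 338 and 345 counts in WT it went to 2166, 1925 and 2025 counts in *Aff3ir-ORF2-/-* libraries. The genotypes lay far apart and each was tight, at 19.0 ± 0.845 CPM in WT and 111 ± 7.82 CPM in *Aff3ir-ORF2-/-* MEFs (SD, n = 3). This was a 5.83-fold higher level, with a log2 fold change of 2.54 (SE 0.068; 2.59 without replicate 2) that ranged from 2.48 to 2.59 over the alternatives. *Efemp2* (gene ID 58859) had 3248, 3298 and 3310 counts in WT and 3682, 4156 and 3878 counts in *Aff3ir-ORF2-/-* libraries. At 188 ± 0.936 and 212 ± 10.5 CPM (SD, n = 3), it did not overlap between the genotypes either, but its difference was small, with a log2 fold change of 0.17 (SE 0.046), or 0.13 (SE 0.034) without replicate 2. *Fbln5* (gene ID 23876) reached 5029, 5199 and 5255 counts in WT libraries and 6496, 9046 and 5556 counts in those of *Aff3ir-ORF2-/-* MEFs. In CPM its lowest *Aff3ir-ORF2-/-* library, replicate 3 at 302.8, lay just above its highest WT library at 300.8. Its log2 fold change was 0.37 (SE 0.17), or 0.15 (SE 0.066) without replicate 2, and it was not called. The short fibulins thus differed in how far apart the genotypes were, with *Efemp1* alone of the 3 past 1.5-fold.

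Fibulin-1 and fibulin-2, encoded by *Fbln1* and *Fbln2*, are longer members of the family that are found in basement membranes and around elastic fibres. *Fbln1* (gene ID 14114) had 1293, 1288 and 1306 counts in WT against 755, 951 and 789 counts in *Aff3ir-ORF2-/-* libraries. The WT libraries lay within 1.02-fold of each other, and all *Aff3ir-ORF2-/-* libraries lay well below them, at 45.2 ± 5.15 against 74.3 ± 0.936 CPM (SD, n = 3). The level was 1.65-fold lower, with a log2 fold change of -0.72 (SE 0.074), and of -0.82 (SE 0.047) without replicate 2. *Fbln2* (gene ID 14115) had the most counts of the 10 genes, 58175, 58306 and 56882 in WT libraries and 62129, 68509 and 55600 in those of *Aff3ir-ORF2-/-* MEFs. Its genotypes overlapped, at 3316 ± 59.1 and 3373 ± 325 CPM (SD, n = 3), and the log2 fold change of 0.025 (SE 0.069) became -0.046 (SE 0.045) without replicate 2. *Fbln2* was the only gene of the 10 with a log2 fold change closer to 0 than 0.1 in both fits.

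*Emilin1* encodes EMILIN-1, a glycoprotein at the boundary of elastin and microfibrils. The WT libraries held 1276, 1285 and 1224 counts of this gene (gene ID 100952), and the *Aff3ir-ORF2-/-* libraries 2027, 2795 and 2099. Every *Aff3ir-ORF2-/-* library was above every WT library, with replicate 2 the highest. The level was 72.4 ± 2.07 and 125 ± 21.5 CPM (SD, n = 3), which is 1.73-fold higher (log2 fold change 0.79, SE 0.12). Without replicate 2 it was 0.64 (SE 0.042), and the gene was still called.

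**Figure D2:**
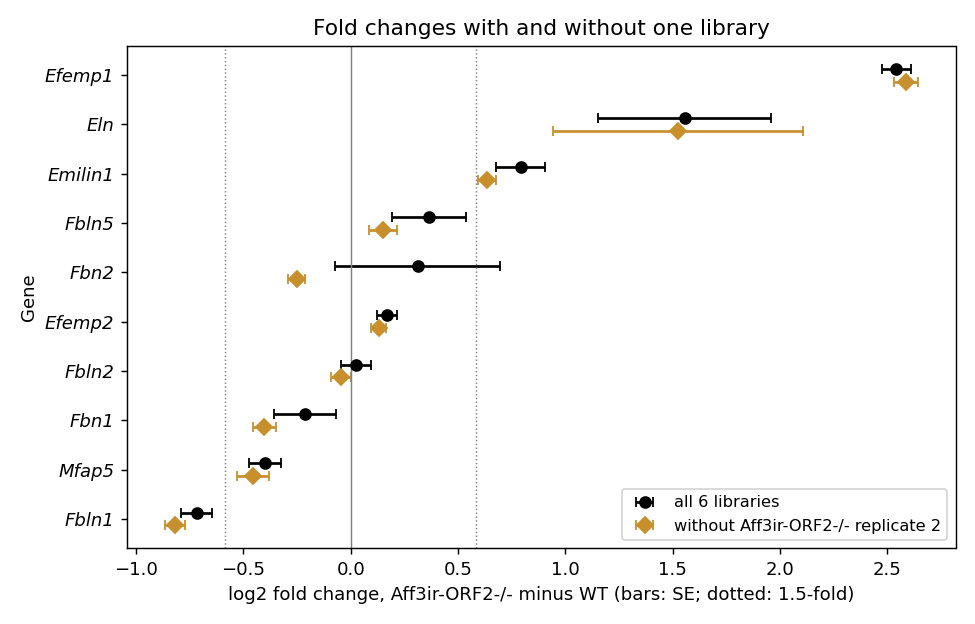
Log2 fold change (x axis, *Aff3ir-ORF2-/-* minus WT) with SE bars for the 10 genes (y axis), from all 6 libraries (black circles) and without *Aff3ir-ORF2-/-* replicate 2 (yellow diamonds); dotted lines mark 1.5-fold. *Fbn2* moved from 0.31 to -0.25 and *Fbln2* from 0.025 to -0.046, while *Efemp1* was at 2.54 and 2.59.

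Replicate 2 was the highest of the *Aff3ir-ORF2-/-* libraries for 8 of the 10 genes. *Eln*, highest in replicate 3, and *Efemp1*, highest in replicate 1, were the exceptions. Among 13074 tested gene symbols, 36.6% were highest in replicate 2. The excess of replicate 2 over the mean of the other *Aff3ir-ORF2-/-* libraries was 2.42-fold for *Fbn2*, 1.47-fold for *Fbln5*, 1.41-fold for *Fbn1* and 1.33-fold for *Emilin1*, and 1.08 to 1.21-fold for *Efemp2*, *Mfap5*, *Fbln2* and *Fbln1*. The summed fibroblast markers were also highest in replicate 2. Singly, *Vim*, *Prrx1* and *S100a4* were instead the lowest there, while the other fibroblast markers were the highest. The part of the fibroblast markers in this pattern was not tested. The median coefficient of variation of the 10 genes was 2.02% in WT and 14.3% in *Aff3ir-ORF2-/-* libraries, and over all tested genes it was 4.39% and 7.69%.

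To compare levels between genes, CPM was divided by the length in kb of the longest GENCODE M21 transcript of each gene, from 2.04 kb for *Efemp1* to 11.97 kb for *Fbn1*. On this scale *Fbln2* was the most abundant of the 10 genes, at 693 ± 12.3 CPM per kb in WT and 705 ± 68.0 in *Aff3ir-ORF2-/-* MEFs (SD, n = 3). It took 69.6% of the summed level of the 10 genes in WT and 65.9% in *Aff3ir-ORF2-/-* MEFs. In WT the order below it was *Fbn1* (111 CPM per kb), *Efemp2* (71.6), *Fbln5* (50.8), *Fbln1* (20.3), *Emilin1* (18.8), *Fbn2* (10.3), *Mfap5* (9.91), *Efemp1* (9.34) and *Eln* (1.32). This order below *Fbln2* rests on the choice of transcript. A median length can lie far below the longest, as for *Fbn2*, at 0.64 against 11.04 kb. With the median length of each gene's annotated transcripts, 0.64 kb for *Fbn2* and 9.85 kb for *Fbn1*, *Efemp2* (3.89% of the summed WT level), *Fbn2* (3.09%) and *Fbn1* (2.35%) followed *Fbln2*, and *Eln* was again the lowest. On the longest transcripts *Fbn2*, *Mfap5* and *Efemp1* lay within about 1 CPM per kb of each other, and *Fbn2* and *Mfap5* did not differ beyond the SD of *Mfap5*, which was 0.505. In *Aff3ir-ORF2-/-* MEFs *Efemp1* stood at 54.4 ± 3.84 CPM per kb, near *Fbln5* at 65.5 ± 16.1 and above *Emilin1* at 32.5 ± 5.59. *Eln* was the least abundant of the 10 genes in both genotypes, at 3.87 ± 1.79 CPM per kb in *Aff3ir-ORF2-/-* MEFs. The summed level of the 10 genes was 986 to 1005 CPM per kb in WT and 1057, 1192 and 961 in *Aff3ir-ORF2-/-* replicates 1, 2 and 3, so that the genotypes overlapped.

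**Figure D3:**
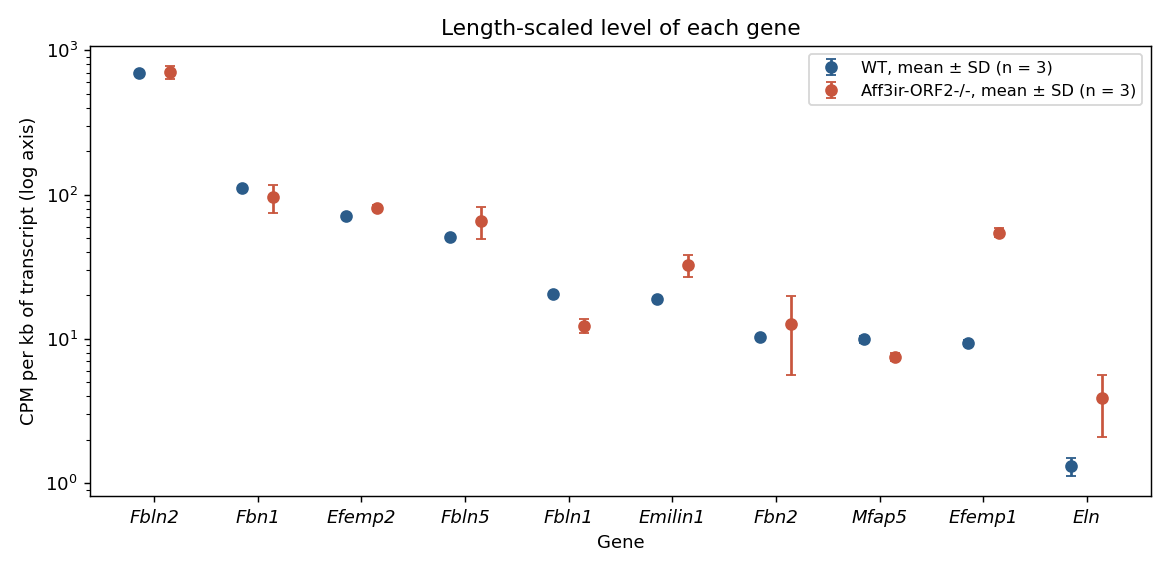
Mean level of each gene in CPM per kb of transcript (y axis, log scale) with SD bars, for WT (blue) and *Aff3ir-ORF2-/-* MEFs (red), n = 3 libraries each, ordered by the WT level. *Fbln2* lay highest, at 693 and 705, *Eln* lowest, at 1.32 and 3.87, and *Efemp1* moved from 9.34 to 54.4.

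Ratios of related genes within a library do not depend on how the libraries were scaled, though their size depends on the transcript lengths used. *Efemp2* exceeded *Efemp1* by 8.05, 7.55 and 7.42 times per kb in WT replicates 1, 2 and 3 and by 1.31, 1.67 and 1.48 times in *Aff3ir-ORF2-/-* replicates 1, 2 and 3. *Fbln2* exceeded *Fbln1* by 33.3 to 34.6 times in WT and by 53.9 to 62.9 times in *Aff3ir-ORF2-/-* libraries. *Fbn1* exceeded *Eln* by 80.7, 74.4 and 101 times in WT and by 44.6, 29.6 and 14.0 times in *Aff3ir-ORF2-/-* replicates 1, 2 and 3. None of these ratios overlapped between the genotypes. Each pairs a called gene with one that was not called, so this follows from the differences given above and adds nothing to them. *Fbn2* made up 8.25% to 8.71% of the fibrillin level in WT and 8.76%, 14.99% and 9.96% in *Aff3ir-ORF2-/-* replicates 1, 2 and 3, so that replicate 2 stood out and replicate 1 lay just above WT. This share uses the longest transcripts, which are of similar length, 11.97 kb for *Fbn1* and 11.04 kb for *Fbn2*. On the median lengths given above *Fbn2* exceeded *Fbn1* in WT, through the 0.64 kb median of *Fbn2*. The counts of *Fbn1* were far above those of *Fbn2* in every library.

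**Figure D4:**
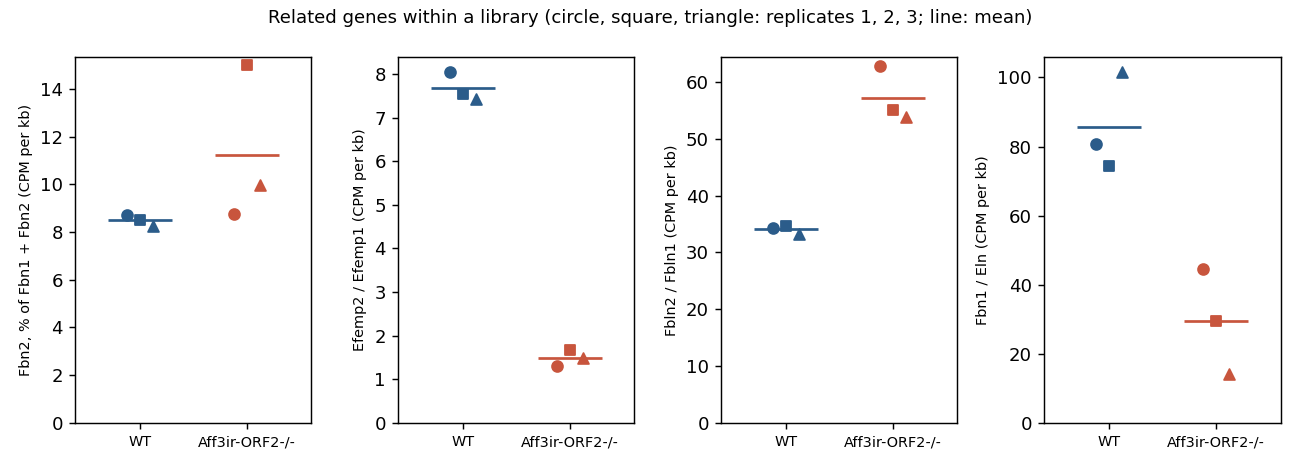
Ratios of related genes, on the CPM per kb scale, in each WT (blue) and *Aff3ir-ORF2-/-* library (red), with a line at the mean of 3 libraries and every y axis from 0. *Efemp2* over *Efemp1* lay between 7.42 and 8.05 in WT and between 1.31 and 1.67 in *Aff3ir-ORF2-/-* libraries, while the share of *Fbn2* was 8.76% and 9.96% in *Aff3ir-ORF2-/-* replicates 1 and 3 and 14.99% in replicate 2.

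The surrounding elastic fibre system was read from a list of 41 other genes, of which 40 had a row and 34 were tested. By edgeR's quasi-likelihood test, with p-values adjusted after Benjamini-Hochberg over all tested genes, 10 were higher, 2 were lower and 22 did not pass, with a median log2 fold change of 0.28. This was 35.3% called, where 21.4% of all tested genes were called. The list was chosen with earlier results of these data known, so its counts and the adjusted p-values below are a description. *Elane* was not analysed here. The genes not tested, all with low counts, were *Adamtsl2*, *Adamts17*, *Emilin3*, *Mmrn1*, *Mmrn2* and *Mmp7*.

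Of 6 genes for the crosslinking of elastin and its copper supply, 3 rose and none fell past both thresholds. *Lox*, a lysyl oxidase, rose from 2148 ± 20.9 to 3680 ± 452 CPM (SD, n = 3), with 36638, 38059 and 37659 counts in WT against 68428, 76183 and 58614 counts in *Aff3ir-ORF2-/-* libraries. The log2 fold change of *Lox* was 0.78 (SE 0.081, adjusted p = 5.25e-05 in the same edgeR test). *Loxl2* (0.62, adjusted p = 0.00403) and *Loxl4* (0.59, adjusted p = 3.94e-05) also rose in that edgeR test. Without *Aff3ir-ORF2-/-* replicate 2, *Loxl2* was at 0.47 and no longer reached 1.5-fold. Nor did *Loxl4* without *Aff3ir-ORF2-/-* replicate 1 (0.53), without WT replicate 2 (0.57) or with no filter on low counts (0.58). *Loxl1*, which has been linked to the upkeep of elastic fibres, had a log2 fold change of 0.13, *Atp7a*, a copper transporter, of 0.50, and *Loxl3* of -0.41, all short of 1.5-fold.

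Of 10 tested genes for microfibril-associated and latent TGF-β binding proteins, 3 rose and 2 fell. *Adamtsl4* and *Thsd4*, whose products bind fibrillin-1, rose with log2 fold changes of 1.62 (SE 0.084, adjusted p = 1.15e-06) and 1.39 (SE 0.14, adjusted p = 3.30e-05) in the edgeR test. The latent TGF-β binding proteins moved apart, with *Ltbp2* higher at 0.89 (adjusted p = 1.37e-06) and *Ltbp4*, which takes part in elastic fibre assembly, lower at -0.92 (adjusted p = 1.63e-04) in that edgeR test. *Ltbp2* went from 392 ± 5.76 to 726 ± 36.7 CPM and *Ltbp4* from 34.3 ± 0.673 to 18.2 ± 3.33 CPM (SD, n = 3), without overlap. *Ltbp1* (-0.27), *Ltbp3* (0.19) and *Mfap4* (-0.33) did not reach 1.5-fold. *Adamts6*, a protease, fell by 0.77 on the log2 scale (adjusted p = 1.25e-05 in the edgeR test).

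None of the 4 tested fibulin and EMILIN relatives was called in edgeR's quasi-likelihood test, in which 1 of them had an unadjusted p under 0.05. *Emilin2*, at 100.3 and 100.7 CPM, had a log2 fold change of 0.0054 (SE 0.057). *Hmcn1*, a long fibulin-like protein, was at -0.65 (SE 0.29, adjusted p = 0.105) and *Fbln7*, a further fibulin with 10 to 25 counts per library, at 0.77 (SE 0.30, adjusted p = 0.0521) in the edgeR test. *Hmcn1* was called by DESeq2's Wald test (-0.65, adjusted p = 0.0129), by limma voom (-0.73, adjusted p = 0.00807) and, in edgeR, without *Aff3ir-ORF2-/-* replicate 2 (-1.09). *Fbln7* was called in edgeR with upper quartile scaling (0.81), total counts (0.80), a minimum of 10 counts in every library (0.78) or without *Aff3ir-ORF2-/-* replicate 3 (0.94). *Hmcn1* had 268, 296 and 290 counts in WT but 140, 295 and 141 counts in *Aff3ir-ORF2-/-* libraries. Of the latter, replicate 2 alone lay within the WT range in counts.

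Of 7 tested proteases that can degrade elastin, *Ctss* (log2 fold change 7.52, adjusted p = 2.74e-06) and *Mmp12* (2.04, adjusted p = 0.00122), known as products of macrophages, rose in the edgeR test. *Ctss* is also in the macrophage list given above, and it had 14, 20 and 12 counts in WT against 2362, 3151 and 3462 counts in *Aff3ir-ORF2-/-* libraries. The proteases with the most counts, *Ctsl* (0.28), *Mmp14* (0.11) and *Mmp2* (0.42), did not reach 1.5-fold. Of 4 receptors, the integrin subunit *Itgb5* rose, with a log2 fold change of 0.68 (adjusted p = 6.03e-04 in the edgeR test), while *Itgav* (0.22), *Itgb3* (0.29) and *Glb1* (0.38) did not reach 1.5-fold. Of the TGF-β ligands, *Tgfb2* rose only just past 1.5-fold (log2 fold change 0.59, adjusted p = 1.33e-04 in the edgeR test), and *Tgfb1* (0.12) and *Tgfb3* (0.031) did not pass. *Itgb5* (0.57) and *Tgfb2* (0.57) were under 1.5-fold without *Aff3ir-ORF2-/-* replicate 2, which left 7 of the 10 higher genes and 3 lower. *Tgfb2* was also under 1.5-fold without WT replicate 2 (0.53) or *Aff3ir-ORF2-/-* replicate 3 (0.55), with no filter (0.57), and with DESeq2's size factors or Wald test (both 0.58).

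**Figure D5:**
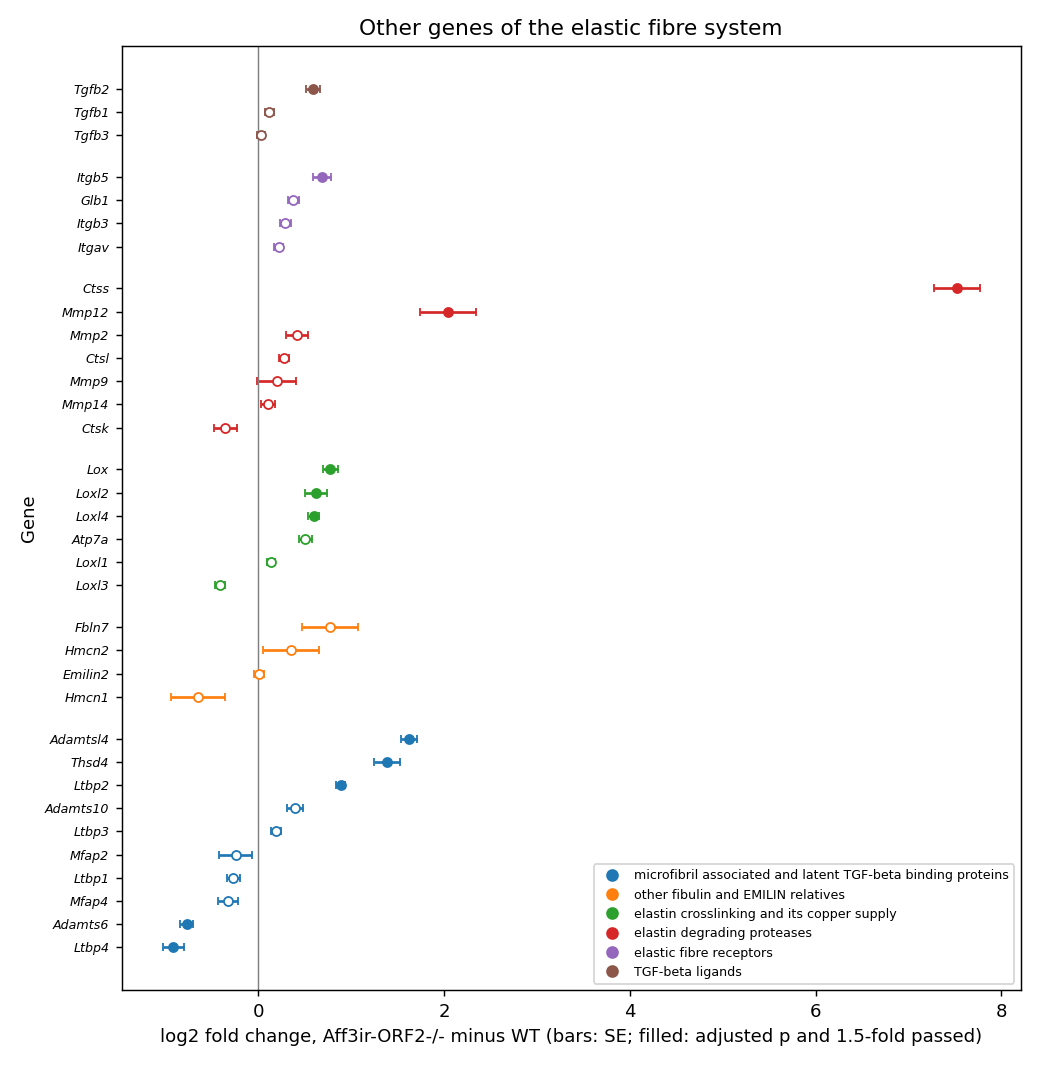
Log2 fold change (x axis, *Aff3ir-ORF2-/-* minus WT) with SE bars for the 34 tested genes of the wider list (y axis), coloured by group; filled points passed the adjusted p and 1.5-fold thresholds. The 12 filled points include *Ctss* at 7.52 and *Mmp12* at 2.04, and only *Ltbp4* and *Adamts6* are filled below 0.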

How the data were processed

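Per the labels and the study's methods, RNA from MEFs was sequenced as paired-end reads on a DNBSEQ instrument and filtered with SOAPnuke. The authors deposited a table of estimated counts for each gene, without normalization. The submitters' processing notes name the build mm8, and the aligner, counting tool and annotation are not given in the sources used here. Depending on the library, 10.6% to 11.3% of these counts had decimals, and all were rounded. Of 17092 genes, 13075 passed filterByExpr (minimum count 10, minimum total count 15) and were tested with edgeR's quasi-likelihood test (robust) after TMM scaling, without covariates. SE was the log2 fold change over the square root of F. The alternatives were other scalings, filters and tools, a replicate block, leaving out each library, the unadjusted p and a 2-fold change.

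The 10 genes and the lists were chosen with earlier results of these data known. Neither the counts over a list nor the adjusted p-values of its genes are therefore independent support. Named were all 10 genes, called genes of the wider list, and up to 3 others per group by CPM. R 4.3.3, edgeR 4.0.16, limma 3.58.1, DESeq2 1.42.0, Python 3.11.15 and matplotlib 3.10.9 were used. RefSeq windows were matched by symbol and GENCODE M21 lengths of the longest transcript were used, so levels per kb depend on which transcripts the cells made.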

Additional observations from a re-analysis of the deposited data

How the results depend on the processing

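The counts of called genes among the 10, 3 higher and 1 lower, were the same under the other scalings, filters and tools. Without 1 library, 2 to 3 were higher and 1 was lower, with *Eln* the gene lost without *Aff3ir-ORF2-/-* replicate 2 or WT replicate 3. Of the wider list, 7 to 10 were higher and 2 to 3 lower without 1 library. With a 2-fold change, 2 of the 10 genes were higher and 0 lower, and 4 and 0 of the wider list, because fewer genes reach that fold. Leaving out single libraries gave *Fbn2* -0.252 to 0.525, *Fbln2* -0.0458 to 0.0939, *Emilin2* -0.0485 to 0.0360 and *Mmp9* -0.00508 to 0.401 as log2 fold changes. Signs turned without *Aff3ir-ORF2-/-* replicate 2 for *Fbn2* and *Fbln2*, without replicate 3 of that genotype for *Emilin2* and *Mmp9*, and for *Emilin2* with no filter (-0.00939) or without WT replicate 2 (-0.0309). The cause was not tested. Of 140 log2 fold changes of the 10 genes under the alternatives, 136 kept their direction and side of the thresholds. With the replicate number as a block, the counts were 3 higher and 1 lower, and 10 and 2 of the wider list. In their deviations, each WT library correlated best with the *Aff3ir-ORF2-/-* library of the same number. These correlations were only 0.0145 to 0.0424, so the numbers were not taken as pairs. With the median in place of the longest transcript length, *Fbln2* took 86.6% of the summed WT level per kb in place of 69.6%. *Fbn1* took 2.35% in place of 11.1%, and *Fbn2* took 3.09% in place of 1.03%. The order of the fibrillins turned through the median length of *Fbn2*, 0.64 kb against 11.04 kb for its longest transcript. Counts were lowest for *Fbln7* and *Hmcn2*, at 10 to 25 per library, where small differences were not detectable at this depth.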
